A study of Mus musculus with 2 samples.

Results

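The 8 genes described here, Ager, Hopx, Pdpn, Rtkn2, Cldn18, Akap5, Emp2 and Gprc5a, are markers of the alveolar type 1 cell and were chosen by name, out of 21646 protein-coding genes with a usable start site. All 8 were found in the gene annotation (GENCODE release M21). The data are CTCF ChIP-seq peaks from whole lung of newborn mice of strain B6NCrl (age 0 days), in 1 group with 2 replicates. The labels call the replicates biological, but both name 1 biosample and 1 donor, and their differences may therefore be technical only. No untreated, mutant or other comparison group was analysed here, and the whole tissue holds many cell types besides type 1 cells. The peaks carry no expression values, so the gene names could not be checked against transcript levels, and which cells gave a peak was not tested.

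Alveolar type 1 cells are the very thin, flat epithelial cells that cover most of the gas exchange surface of the lung. They mature around birth and arise from progenitors that also give rise to the surfactant-secreting type 2 cells. CTCF is a DNA-binding protein with many zinc fingers. It halts the loop extrusion carried out by cohesin, and loops tend to form between sites whose motifs point towards each other. The strand of a motif is therefore given below beside its signal.

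A site is a peak of the authors' optimal list, which was thresholded on reproducibility (irreproducible discovery rate, IDR). Not every site was found in both replicates: 63131 of the 64732 used had a peak in each. It was called a promoter site when its summit lay at most 1000 bp from the start site (TSS) of any protein-coding transcript of the gene, and a body site when it lay elsewhere inside the gene. The signal of a site in a replicate is the authors' own value for the highest peak of that replicate within 100 bp of the summit. Neither its scale nor the number of reads behind it was stated, so it ranks peaks within a list and no counting interval can be set on it. Over all 64732 sites on chromosomes 1 to 19 and X, the median signal was 40.8 in replicate 1 and 37.5 in replicate 2.

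Every gene of the set had CTCF sites in its neighbourhood, as did 87.7% of all protein-coding genes. Most of the sites around the 8 genes lay away from their promoters. In total 73 sites lay inside the 8 genes or at most 50000 bp from their ends: 3 at promoters, 16 in gene bodies and 54 in the flanks. A promoter site was found at 3 of the 8 genes (Rtkn2, Emp2 and Hopx), where 39.8% of all protein-coding genes had one. A body site was found at 5 of 8 (Rtkn2, Gprc5a, Hopx, Pdpn and Cldn18), against 47.3% of all genes, and all 8 had a site in the wider window, against 87.7%. These are descriptions of a chosen list, and no test was made of it. The number of sites per window differed widely, from 4 at Emp2 and 6 each at Cldn18 and Gprc5a to 15 at Ager and 16 at Rtkn2. Per 100 kb of window, this was 3.03 at Emp2 and 14.6 at Ager, with a median of 6.31 over the 8 genes and of 4.54 over all genes.

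**Figure D1:**
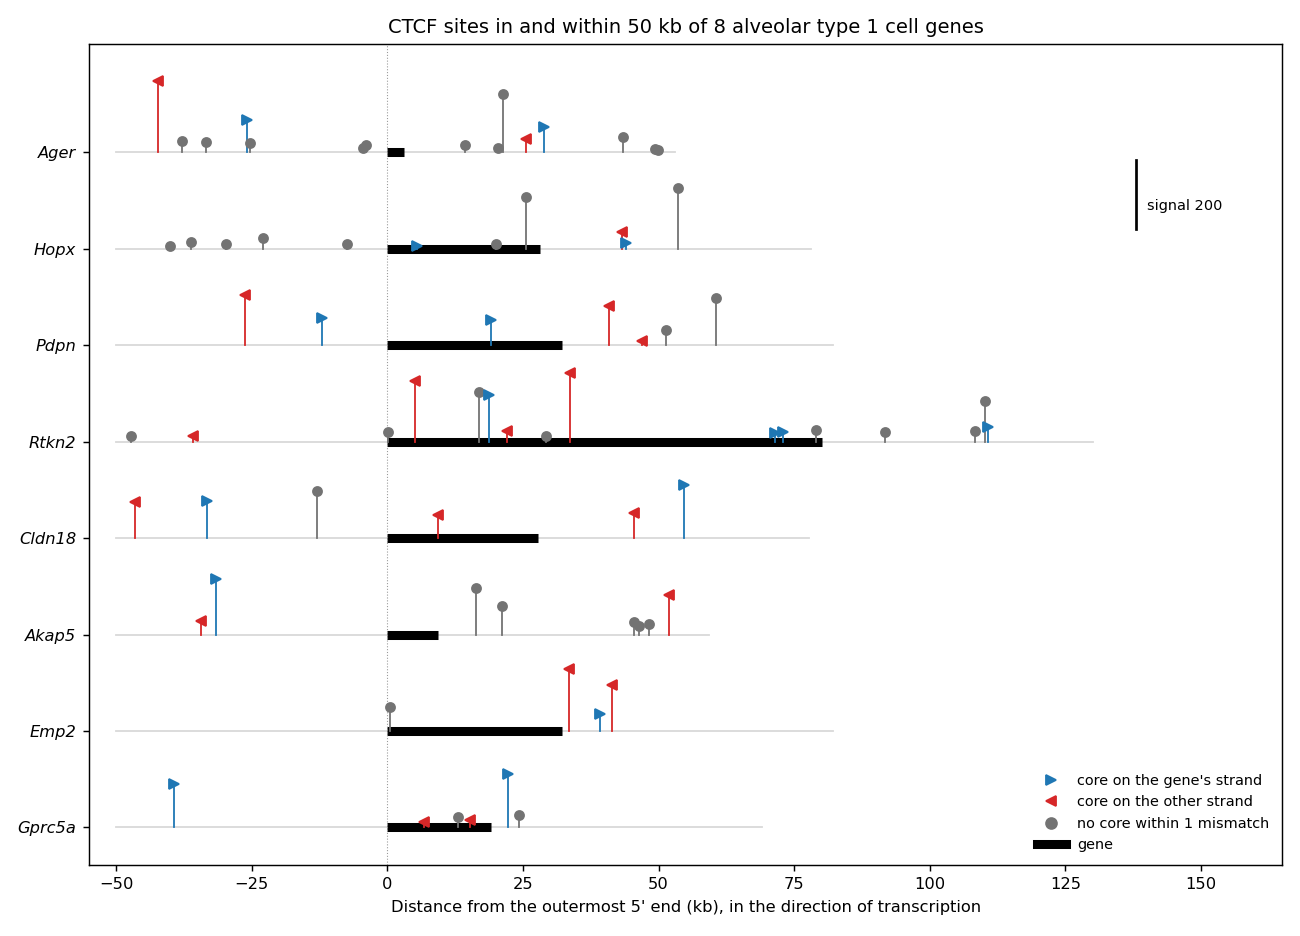
Each row is a gene (black bar) with the CTCF sites found in it and within 50 kb of its ends, placed by distance in kb from its outermost 5′ end in the direction of transcription. The height of a stem is the mean signal of the 2 replicates, and triangles show the strand of the CTCF core. Rtkn2 carries 10 sites inside the gene, while Ager and Akap5 carry none.

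The sequences at the body and promoter sites are shown first, because these sites lie in the genes themselves. Each stretch is 30 bases long, from RefSeq's GRCm38 sequence (the assembly that mm10 names), and is written 5′ to 3′ on the strand of the motif. The middle 12 bases are the core of the CTCF motif or its closest match within 50 bp of the summit, and capitals mark the bases that match the core. A site is said to hold the core when at most 1 base differs.
Hopx body, chr5:77109556-77109585 (minus strand): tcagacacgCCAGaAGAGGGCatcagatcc
Pdpn body, chr4:143280377-143280406 (minus strand): ccacagaagCCAGTAGAGGGCatcagatcc
Rtkn2 body, chr10:67984759-67984788 (minus strand): ctgaagtaaCCAGCAGGGGGCcacggccac
Rtkn2 body, chr10:67998287-67998316 (plus strand): ggcaccttgCCACTAGATGGCgcttaggtt
Rtkn2 body, chr10:68001645-68001674 (minus strand): ccatgaaggCCAGaAGAGGGCgctgtatcc
Rtkn2 body, chr10:68013324-68013353 (minus strand): cccaactggCCAGCAGGGGGCagactcaca
Rtkn2 body, chr10:68051092-68051121 (plus strand): ccgcagaggCCAGaAGGGGGCgtccaattc
Rtkn2 body, chr10:68052487-68052516 (plus strand): tcacggggaCCAGaAGAGGGCttcagttca
Cldn18 body, chr9:99707901-99707930 (plus strand): tggtttataCCAGTtGGGGGCgctggaagg
Gprc5a body, chr6:135072491-135072520 (minus strand): ctttgcaaaCCAGCAGGaGGCagaggggca
Gprc5a body, chr6:135080940-135080969 (minus strand): ccccacacaCCACTAGGGGGCtttcctctc
Rtkn2 promoter, chr10:67979706-67979735 (minus strand): agggctgcagCtGCAGATtGCaccaaccgc
Emp2 promoter, chr16:10313349-10313378 (plus strand): gccccctcgCCgCTgtGGGGCgccacggag
Hopx promoter, chr5:77095187-77095216 (plus strand): cgcctgacaCtcCgAGGGGaCagtatactg
Of the 16 body sites 11 held the core, as did 24 of the 54 flank sites and 0 of the 3 promoter sites. Their closest matches differed from it by 3 bases at Rtkn2 and Emp2 and by 4 at Hopx, and at Emp2 and Hopx the plus and minus strands matched equally well. Over the whole list 48.3% of sites, 51.6% of body sites and 20.6% of promoter sites held the core, so 0 of 3 is near what promoter sites show in general, and over the 73 sites of these genes 35 did (47.9%). Sites with the core had a median signal of 79.4 and 71.4 in replicates 1 and 2, and those without it 32.4 and 27.8. Over all sites the corresponding medians were 68.3 and 63.7 with the core, and 27.8 and 25.4 without.

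Ager encodes the receptor for advanced glycation end products, an immunoglobulin-family receptor that type 1 cells carry at very high levels on their basal side. The gene is short (3075 bp; chromosome 17, 34597862 to 34600936, plus strand) and held no CTCF site. Its nearest site lay 3837 bp upstream of the start, in a coding exon of Pbx2, a homeodomain factor whose start site is the closest to that of Ager. The peak there reached 24.3 in replicate 1 and 16.3 in replicate 2, and a weaker site at the start of Pbx2 itself (13 bp from the TSS) had 15.4 and 6.96. Past the 3′ end the nearest site lay 11340 bp away, in a coding exon of Agpat1, an enzyme of phospholipid synthesis, with 24.2 and 18.8. These 3 sites lay below the median of the whole list in both replicates, and none held the core.
The strongest sites around Ager, picked out after their values were seen, stood further out. The highest of its window, between genes and 8585 bp from the nearest start of Notch4, a Notch receptor, had 217 and 194 (34555566 to 34555797), which was also the highest signal among the 73 sites. The next, in an intron of Ppt2, a lysosomal thioesterase, had 189 and 149 (34619057 to 34619302). Of the 15 sites in the window 4 held the core, and 4 had no overlapping site in the authors' conservative list, nor a summit of it within 100 bp, which is what absent from that list means below. The site at the start of Pbx2 was among the latter 4.

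Gprc5a, an orphan G protein-coupled receptor induced by retinoic acid, had 3 sites inside the gene and none at its promoter (chromosome 6, 135065651 to 135084709, plus strand). The body sites were weak. The site 6859 bp from the start, in an intron, had 15.4 and 13.5, that in a coding exon at 12950 bp had 29.2 and 30.9, and that at 15320 bp, in an intron, had 26.2 and 18.98. All 3 lay below the median of the whole list in both replicates. The nearest site beyond each end of the gene was higher. A further flank site, 5266 bp past the 3′ end, had 35.0 and 35.8, also below the median of the whole list in both replicates. The site 3221 bp past the 3′ end (135087802 to 135088055) had 149.3 and 161.6, and the nearest upstream site, 39272 bp before the start and 7379 bp from that of the RNA helicase gene Ddx47, had 129 and 122.

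Pdpn encodes podoplanin, a mucin-like membrane glycoprotein that also marks lymphatic endothelium. It had no promoter site (chromosome 4, 143267431 to 143299564, minus strand). A single intronic site 19169 bp from the start had 76.7 and 66.3, and its core matched without a mismatch. The gene stood between a site 11995 bp upstream (79.4 and 75.7) and a site 8650 bp past the 3′ end (121 and 108). Of its 7 sites in the window, 3 lay in the highest 25% of all sites by signal, the strongest being 26163 bp upstream with 139 and 151. The 3 sites inside or nearest to Pdpn all held the core and had similar values in the 2 replicates.

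Emp2 encodes epithelial membrane protein 2, a small protein with several membrane spans. Its promoter site was the strongest promoter site of the set (chromosome 16, 10313338 to 10313454), 589 bp inside the gene in exonic sequence annotated neither as coding nor as UTR, with 62.4 in replicate 1 and 75.99 in replicate 2. No body site was found elsewhere in the gene (10281749 to 10313968, minus strand). Just past the 3′ end, at 1280 bp, stood a site with 180.2 and 182 whose core matched without a mismatch. This was the shortest gap between a gene of the set and a site beyond its end. On the other side no site was found for 81376 bp, the longest gap, up to a site in a coding exon of Tekt5, a gene of sperm flagella, 104 bp from a TSS of that gene (119 and 103). Emp2 was the only gene of the 8 whose nearest flanking sites were not both within 50000 bp.

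Cldn18, a claudin of epithelial tight junctions with separate lung and stomach isoforms that start from different first exons, had 1 body site and no promoter site (chromosome 9, 99689461 to 99717267, minus strand). The body site lay in an intron, 9349 bp from the outermost start and 2091 bp from the nearest of its 3 annotated start sites, with 75.8 and 58.6. It was flanked by a site 12910 bp upstream (131 and 143) and a site 17669 bp past the 3′ end (76.8 and 67.0). The 6 sites of the window were all above the median of the whole list in both replicates, from 75.8 to 154 in replicate 1 and from 58.6 to 155 in replicate 2. Of these 6, 5 held the core.

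Akap5 encodes a scaffold that anchors protein kinase A near the membrane. Like Ager it held no site (chromosome 12, 76324891 to 76334153, plus strand), and its start was the farthest from any site among the 8, at 16415 bp. Here the nearest sites were strong. The upstream neighbour lay 31497 bp before the gene in a coding exon of Mthfd1, an enzyme of folate metabolism (76293283 to 76293496), with 162 and 158. The downstream neighbour lay 7153 bp past the gene, between genes (76341193 to 76341419), with 142 and 128. Ager and Akap5 thus shared an empty gene but differed in the signal of the sites next to it, 16.3 to 24.3 at Ager and 128 to 162 at Akap5.

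Rtkn2 encodes an intracellular signalling protein. It is the longest gene of the set (80171 bp; chromosome 10, 67979570 to 68059740, plus strand) and held 10 sites. The promoter site (67979558 to 67979837), 17 bp from a TSS, had 28.5 and 25.9. The 9 body sites were all intronic. Sorted by signal after the values were seen, 4 had 142 to 206 in replicate 1 and 128 to 192 in replicate 2. The other 5 had 17.95 to 37.6 and 12.2 to 29.3. Of these weaker sites, those at 22084 bp (34.5 and 28.5) and 29201 bp (17.95 and 15.3) lay between strong ones.
The strong sites lay 5197 bp from the start (67984639 to 67984899; 190.2 and 159.6), at 16828 bp (149.7 and 139), at 18742 bp (142 and 128) and at 33750 bp (68013177 to 68013461; 206 and 192). The last of these was higher than 96.1% of all sites by pooled signal, and the core of 3 of the 4 matched without a mismatch. The cores at 5197 and 33750 bp lay on the strand opposite to the gene, and that at 18742 bp on the strand of the gene. A weaker intronic site at 71555 bp had the largest log2 ratio between replicates among the sites with a peak in both (1.62), with 37.6 in replicate 1 and 12.2 in replicate 2, and it is absent from the conservative list. The nearest sites beyond the ends were also low, with 13.997 and 15.6 upstream (35815 bp) and 24.96 and 27.8 downstream (11485 bp).

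Hopx encodes a small homeodomain protein that does not bind DNA and is used to trace type 1 cells and their progenitors. The gene (chromosome 5, 77086988 to 77115121, minus strand) has 3 annotated TSSs, and its promoter site lay in UTR sequence 85 bp from a start inside the gene, 19953 bp from the outermost 5′ end. That site was the weakest of the 3 promoter sites, with 9.02 in replicate 1 and 17.2 in replicate 2, and is absent from the conservative list. With that list, or with replicate 1 alone, no promoter site was counted at Hopx and the count was 2 of 8 genes. The list of replicate 1 did hold peaks within 1000 bp of a TSS of Hopx. The highest of them (11.3) ranked 66643, outside the 64732 highest peaks of that list. An intronic site at 5552 bp had 17.97 in replicate 1 and no peak within 100 bp in replicate 2, and is also absent from the conservative list. The strong site of the gene was an intronic one at 25604 bp (77089420 to 77089630), with 151 and 149.4, whose closest match to the core differed by 3 bases. Outside the gene, 1 site between genes had 177 in each replicate (77061443 to 77061691), and the other 7 had 12.97 to 49.5 in replicate 1. Of those 7, 1 had no peak in replicate 2.

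**Figure D2:**
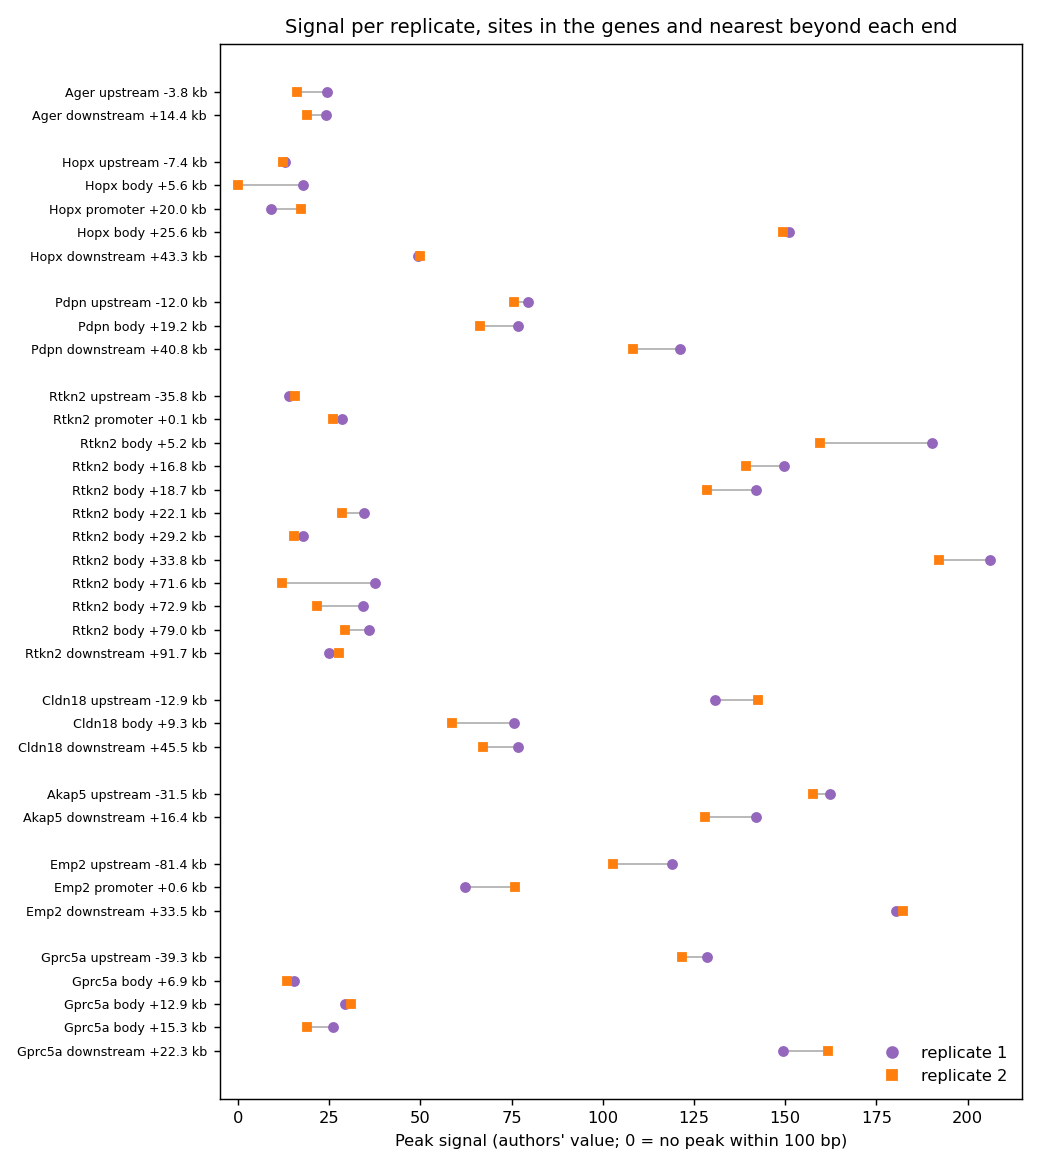
Peak signal (x axis, the authors' value) in replicate 1 (circles) and replicate 2 (squares) for each site at a promoter, in the body, or nearest beyond an end of the 8 genes, labelled with its distance from the outermost 5′ end. The 4 strong sites in Rtkn2, picked out by their signal, lie between 128 and 206, and its other sites shown lie at 37.6 or less. The sites nearest to Ager lie below 25.

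The distance from the outermost 5′ end to the closest site was 128 bp at Rtkn2, 589 bp at Emp2, 3837 bp at Ager, 5552 bp at Hopx, 6859 bp at Gprc5a, 9349 bp at Cldn18, 11995 bp at Pdpn and 16415 bp at Akap5. The median of 6205.5 bp compares with 4005 bp over all protein-coding genes. The value for Hopx rests on the intronic site without a peak in replicate 2, which is absent from the conservative list. A nearer site was found at 12.9% of all genes for Rtkn2 and at 72.1% for Akap5, and the other 6 genes lay between these. The nearest site beyond the 3′ end was closer than that beyond the 5′ end at 5 genes and farther at 3, and over all genes it was closer at 44.9%. The median gap was 9995 bp downstream and 22203.5 bp upstream, where all genes had 15427 and 13407.5 bp. The promoters of Rtkn2 and Emp2 had a GC content of 60.3% and 61.3% within 500 bp of the outermost 5′ end, and Hopx, the other gene with a promoter site, had 53.5%. The 5 genes without one had 50.3% (Cldn18) to 59.04% (Akap5), so the groups overlapped only through Hopx. The value for Hopx is that of its outermost 5′ end, which lies 19953 bp from its promoter site. Over all genes the median was 59.0% with a promoter site and 51.2% without.

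**Figure D3:**
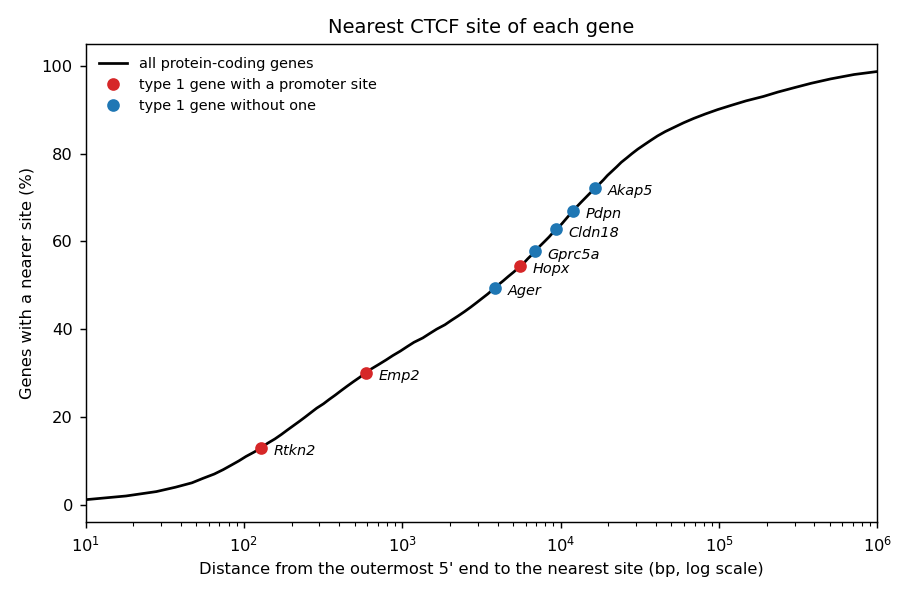
The curve gives, for all protein-coding genes, the percentage (y axis) whose nearest CTCF site lies closer to the outermost 5′ end than the distance in bp on the log-scaled x axis. The points place the 8 type 1 genes on it, from Rtkn2 at 128 bp to Akap5 at 16415 bp.

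At the 5 genes without a promoter site, the lists of the single replicates, which reach down to 3.44 (replicate 1) and 3.14 (replicate 2), held peaks of low signal that fell outside the optimal list. The highest within 1000 bp of a TSS had 7.72 and 5.84 at Gprc5a, 7.40 and 5.47 at Cldn18, 5.20 and 6.21 at Pdpn, and 3.78 and 3.48 at Ager in replicates 1 and 2. At Akap5 it had 5.50 in replicate 1, and replicate 2 held none. None of these ranked among the 64732 highest peaks of its replicate.

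The 8 genes fell into 4 combinations of promoter and body sites that each hold many other genes. Rtkn2 and Hopx had both, as did 5355 genes in all (24.7%). Emp2 had a promoter site and no other body site, like 3261 genes (15.1%). Gprc5a, Pdpn and Cldn18 had body sites only (4894 genes, 22.6%). Ager and Akap5 had neither but had a site within 50000 bp (5466 genes, 25.3%). With a single group of samples there is no pattern across conditions by which the genes most like them could be named.

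The sites that enclosed each gene were then described by the strand of their cores. For each gene the nearest site with a core of known strand was taken beyond either end, and the sequences below show the pairs of the 4 genes whose cores faced each other, the left one on the plus and the right one on the minus strand. Capitals again mark bases that match the core.
Ager left, chr17:34572047-34572076 (plus strand): acctgcgcgCCAGaAGAGGGCgccagatcc
Ager right, chr17:34623349-34623378 (minus strand): acctgcacaCCAGaAGATGGCatcagacca
Pdpn left, chr4:143258774-143258803 (plus strand): gttcggcggCCACCAGGGGGCggtagtcgg
Pdpn right, chr4:143311538-143311567 (minus strand): ccatagaggCCAGaAGAGGGCgccagatcc
Cldn18 left, chr9:99671775-99671804 (plus strand): gttttgtcaCCAGTAGGTGGtgcaactgca
Cldn18 right, chr9:99750450-99750479 (minus strand): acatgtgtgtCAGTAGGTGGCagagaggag
Akap5 left, chr12:76293375-76293404 (plus strand): ttgctctgtCCcCTAGGTGGCgctgcagga
Akap5 right, chr12:76376847-76376876 (minus strand): attttctgaaCACTAGAGGGCaatgtaggc
Facing cores enclosed 4 of the 8 genes, against 27.9% of 21461 genes with a core on either side. The cores lay on the same strand at Hopx, Emp2 and Gprc5a and faced apart at Rtkn2. The facing pairs were 51304 bp apart at Ager, 52778 bp at Pdpn, 78665 bp at Cldn18 and 83450 bp at Akap5. At Ager the left site had 94.5 and 90.98 and the right one 40.4 and 33.1, and at Akap5 they had 162 and 158, and 124 and 107. With 2 mismatches allowed in the core, facing pairs enclosed 2 of the 8 genes.

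At Hopx, Emp2 and Gprc5a the cores on either side were exact or nearly so and pointed the same way, to higher coordinates. Their sequences are given beside the facing pairs for contrast.
Hopx left, chr5:77071806-77071835 (plus strand): gatccaaagCCACTAGATGGCaaaatacca
Hopx right, chr5:77194135-77194164 (plus strand): cctcagacaCCACaAGAGGGCgaaagatcc
Emp2 left, chr16:10280453-10280482 (plus strand): tctatgatgCCACCAGGGGGCaggagagta
Emp2 right, chr16:10395328-10395357 (plus strand): ggttcctgcCCAGCAGGGGGCagcgcctgc
Gprc5a left, chr6:135026371-135026400 (plus strand): tcgttttcaCCgGTAGATGGCagaaggggg
Gprc5a right, chr6:135087905-135087934 (plus strand): ccggcttctCCACTAGATGGCaggaagacc
Between the flanking cores, 6 of the 8 genes had no start site of another protein-coding gene, against 23.6% of all genes with such a pair. The exceptions were Ager, whose interval also held starts of Pbx2, Gpsm3, Rnf5, Agpat1 and Egfl8, and Akap5, with Mthfd1, Zbtb1 and Zbtb25. The closest start of another gene lay 4467 bp away at Ager, 17825 bp at Akap5 and between 46651 bp (Ddx47 at Gprc5a) and 82406 bp (Dzip1l at Cldn18) at the rest. The interval had a median length of 81057.5 bp over the 8 genes and of 119204 bp over all genes.

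Over the whole list many sites in repeated sequence shared 1 core, and so did sites around these genes, in a similar share. The core word CCAGAAGAGGGC, with 1 base off the consensus, was the most frequent among sites in sequence that the reference marks as repeats, where it made up 65.5% of 8503 cores of known strand. In unmasked sequence it made up 1.96% of 22410, and over both 19.4%. It was found at 8 of the 35 core sites around the type 1 genes (22.9%). These were 2 each at Hopx, Pdpn and Rtkn2 and 1 each at Ager and Akap5. All 8 summits lay in masked sequence, where they made up 66.7% of the 12 core sites of these genes. Such a core is printed above at the Hopx body site, at 2 Rtkn2 body sites, at the left site of Ager and at the right site of Pdpn. B2 repeats, short interspersed elements of rodents, are known for carrying CTCF motifs, but the masking does not name the family and the origin of these copies was not tested.
The shared core fixes 12 of the 30 printed bases, so the 18 bases outside it were compared. There the 8 stretches had a median of 9 identical bases per pair (4 to 13, 28 pairs), and the other 27 core sites a median of 5 (0 to 12, 351 pairs). Sites with this core had lower signals, with medians of 34.4 and 28.5 in replicates 1 and 2 against 112 and 102 at the other core sites of these genes. The same order held over all sites, with 27.1 and 24.3 at 6008 sites with the word and 88.6 and 83.7 at 24905 others. The groups differ in more than the word. All 8 sites with it lay in masked sequence, while the 27 others around these genes included the 11 exact cores and 23 unmasked summits. Which of these goes with the lower signal was not tested. The strongest of the 8 were the left site of Ager (94.5 and 90.98) and the right site of Pdpn (79.4 and 75.7), both of which belonged to facing pairs.

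The replicates were compared at each site of the type 1 genes. Of the 73 sites 71 had a peak in both replicates, and the 2 without a peak in replicate 2 both lay at Hopx. Replicate 1 was the higher at 53 of the 71 (74.6%), against 63.5% of all sites, with a median log2 ratio of replicate 1 to replicate 2 of 0.15, against 0.09 over all sites. The SD of that log2 ratio was 0.37 over the 71 sites and 0.46 over all 63131 sites with a peak in both. By signal, 22 of the 73 sites lay in the highest 25% of all sites, where the SD of the log2 ratio was 0.13, and 13 in the lowest, where it was 0.72. A log2 ratio of over 2 SD of all sites in the same 25% band of signal was found at 2 of the 71 (2.82%), against 5.95% of all sites. They were the Rtkn2 site at 71555 bp (1.62) and the Ppt2 site near Ager with 189 and 149 (0.34). The median log2 signal was 5.44 over these sites, 5.30 over all sites and 4.95 at promoter sites of all genes.

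**Figure D4:**
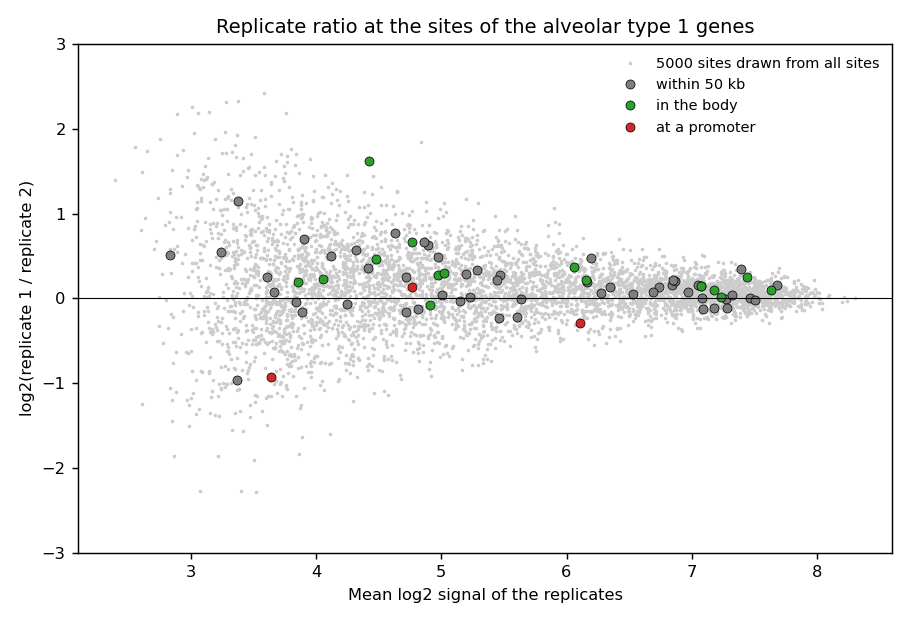
The y axis is the log2 ratio of replicate 1 to replicate 2 and the x axis the mean log2 signal of the replicates, for the 71 sites of the type 1 genes with a peak in both (coloured by place) over a random draw of sites from the whole list (light grey). The spread narrows to the right, and the Rtkn2 body site at 1.62 stands highest among the coloured points.

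Other genes of type 1 cells, of their regulation and of type 2 cells gave the following counts. Of 20 other type 1 genes 8 had a promoter site (40%, against 39.8% of all genes) and 13 a body site (65%, against 47.3%). The 5 highest in the 2 replicates were at Vegfa, the vascular growth factor (244 and 234), Scnn1g, a subunit of the epithelial sodium channel (222 and 219.7), Cav1, the main caveolin (151 and 140.4), Clic5, an intracellular chloride channel protein (65.4 and 65.0), and Spock2, a matrix proteoglycan (40.3 and 34.7). The first 3 of these were higher than any promoter site of the 8 genes in both replicates, and Clic5 was higher than that of Emp2 in replicate 1 and lower in replicate 2. Aqp5, the water channel of type 1 cells, had no promoter site and its nearest site at 4197 bp.
Of 12 regulators 9 had a promoter site (75%). Chosen after their values were seen, 3 of them are Cebpa, a transcription factor of epithelial maturation (188 and 172), Wwtr1, which encodes the Hippo effector TAZ (102 and 76.7), and Nkx2-1, the lung lineage factor (6.45 and 13.5). Yap1, the related coactivator of TAZ, had none, with its nearest site 25857 bp from the outermost start. The regulators' promoters were the most GC-rich, with a median GC content of 65.1% against 55.5% for the 8 genes and 54.8% for all genes. Of 15 type 2 genes 5 had a promoter site (33.3%) and 9 a body site (60%), and their median distance to the nearest site was 5470 bp, beside 6205.5 bp for the 8 type 1 genes, 2484.5 bp for the 20 other type 1 genes and 663 bp for the regulators. The median number of sites per 100 kb of window was 3.79 for the other type 1 genes, below the 4.54 of all genes and the 6.31 of the 8. No difference between these lists was tested.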

How the data were processed

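The members and gene lists were chosen with earlier results of these data known. Per the labels, peaks are on mm10. Per the deposited descriptions, the lists come from each replicate, from both pooled, and from IDR thresholding. Aligner, peak caller, IDR threshold and read counts were not stated in the sources used here, and the input control was not analysed here. Signal values were used as deposited by the authors, as were the summit offsets. Restricting to chromosomes 1 to 19 and X kept 64732 of 64742 sites. Each replicate list held 300000 peaks. A gene was represented by its longest entry where a symbol was shared. The core was searched on both strands in 101 bp around the summit, and its strand was left unset where both matched equally. All 8 genes were to be named, with every promoter and body site and the nearest beyond each end, and other type 1 genes by their 5 highest promoter sites. No hypothesis test was made. As a check of the code only, the core search found 2000 of 2000 exact cores planted in simulated windows. In the same way, 2000 of 2000 gene classes were recovered when their rules were recomputed. Cores with 1 mismatch and accidental matches in windows without a planted core were not measured. Python 3.11.15, pandas 2.3.3 and pysam 0.24.0 were used. Alternatives were the authors' conservative list, the upper 50% of sites by signal, single replicates, other distances and other mismatch limits. Those for the repeated core and for genes between flanking cores were added after the data were seen.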

Additional observations from a re-analysis of the deposited data

How the results depend on the processing

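Over 10 summary values and 58 alternatives, 41 stayed within the limits set (1.5 times for counts, 1 SD between single-replicate values otherwise) and 17 did not. Promoter sites were found at 1 gene with the upper 50% of sites by signal and at 5 genes within 5000 bp of a TSS, where Ager and Cldn18 joined. Without replicate 1 the count was 3 and without replicate 2 it was 2. The number of sites was 37 with the upper 50%, 43 within 25000 bp and 121 within 100000 bp. The median distance to the nearest site was 7135.5 bp with the conservative list and 14205 bp with the upper 50%, and 6221.5 to 7131 bp when a replicate was left out. The share of sites with the core was 50% with the conservative list, 67.6% with the upper 50%, 15.1% with no mismatch and 75.3% with 2. The median log2 signal was 6.86 with the upper 50% and 5.05 to 5.34 when a replicate was left out. With 2 mismatches, facing cores enclosed 2 genes. The repeated core was at 3 sites with the upper 50% and at 13 within 100000 bp. Facing cores enclosed 5 genes with the conservative list and with either replicate left out. The Hopx promoter site was lost with the conservative list and without replicate 2, although the full list of replicate 1 held weak peaks there (up to 11.3). That list is no subset of the optimal one: 5358 of its 62048 sites overlapped no site of the optimal list. The upper 50% and the shorter and longer distances keep fewer or more sites by construction. Likewise, a looser mismatch limit can only raise the share of sites with the core. For the other shifts the cause was not tested. No paired analysis was possible because there is 1 group. The number of reads is unknown, so weak peaks cannot be given a detection limit.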
